A study of Mus musculus with 2 samples.

Results

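The genes described here are the members of 6 solute carrier families that move amino acids across membranes: Slc1a, Slc3a, Slc7a, Slc36a, Slc38a and Slc43a. They were chosen by symbol from the array's annotation, among probe sets assigned to a single gene, and numbered 42 of the 18193 genes so named. Of these 42 symbols, Slc7a6os and Slc36a1os name opposite-strand neighbours of a carrier gene and not carriers, which leaves 40 carrier genes. The cells were primary myoblasts, muscle precursor cells, isolated from newborn Sv129 mice and grown on laminin and collagen. Control cells spent 4 hours in DMEM with 2% horse serum, and treated cells spent the same time in that medium with 100 ng/ml of Wnt3a, a lipid-modified ligand of the β-catenin pathway. The labels name no genetic change in either group, and they do not give the number of mice behind each culture. Each group had 1 array, so no value below has a replicate, no difference has an error or a p-value, and the number of arrays limits the precision.

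Amino acids cross the plasma membrane through carriers that differ in substrate and in driving force. Several Slc38a carriers and some Slc1a carriers draw neutral amino acids into cells with sodium, and Slc7a1 to Slc7a3 carry arginine and lysine. The heteromeric carriers of the Slc7a family exchange one amino acid for another while bound to a heavy chain encoded by Slc3a1 or Slc3a2. Other carriers sit in the lysosome, where amino acids are released for reuse and where their level is sensed by the growth kinase complex mTORC1. In growing cells, including myoblasts, the transcription factor ATF4 raises several of these genes when amino acids run short.

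The members' transcripts were nearly alike with and without Wnt3a, with the exception of Slc38a6, a member of the Slc38a family, which was 1.53-fold lower with Wnt3a. Intensities are given as log2(intensity + 1), and differences are Wnt3a minus control on that scale. A gene is represented by its brightest probe set and is called measured where this reached a floor of 6, set as a brightness and not by detection calls, on at least 1 array. Of the 42 members 26 were measured. A gene was counted where it was at least 25% higher with Wnt3a than in the control or, which is the same ratio turned over, at least 20% lower. None of the 26 was at least 25% higher with Wnt3a, where 2.61% of all 11397 measured genes were, and 1 was at least 20% lower, where 2.7% of all measured genes were. The same member was the 1 at least 1.5-fold lower (0.342% of all measured genes), with 0 that much higher (0.886%). At 2-fold 0 members were lower (0.0614%) and 0 higher (0.254%). For both directions together the members' share was 3.85% and the share of all measured genes 5.32%, so the members' count lies near the background and singles out nothing about the families. The measured members had a median difference of -0.010, beside -0.0057 for all measured genes, with 12 members higher and 14 lower. The members' central 50% lay between -0.093 and 0.074, and that of all measured genes between -0.093 and 0.078. Differences under 0.2 in size were found for 21 of the 26 members (80.8%) and for 84.2% of all measured genes.

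The scale is relative to the bulk of genes. Spike-in controls are RNAs that a laboratory may add, and which were added here was not checked. The 42 probe sets picked by name for them were all lower on the Wnt3a array, with a median difference of -0.19. Scaling on them would add 0.19 to every difference and would give 23 members higher and 3 lower, while the median of all genes would shift to the same extent (0.19, beside 0.18 for the members). Directions of single members given here therefore hold relative to other genes on these arrays. Of the members named below, those with a negative difference smaller in size than 0.19 would be positive under that scaling.

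The DNA of the member that differed most shows one feature of its place in the genome. Slc38a6 lies on chromosome 12 head to head with Trmt5, which encodes a tRNA methyltransferase, on the opposite strand. The stretch between the annotated starts of the pair is printed because both genes start from its ends and both were lower with Wnt3a. It is 136 bases long, at chr12:73286712-73286847 of GRCm38.p6, plus strand, taken from the RefSeq promoter windows of that build. The RefSeq spans of the genes overlap, so other transcripts of them start elsewhere. Capitals mark the letters TGACGTCA, the cAMP response element bound by CREB and ATF factors.

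Slc38a6 and Trmt5: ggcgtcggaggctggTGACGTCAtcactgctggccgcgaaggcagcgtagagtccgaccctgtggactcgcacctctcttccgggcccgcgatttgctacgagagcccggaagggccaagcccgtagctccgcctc

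Also printed are the 250 bases before the starts of Slc38a9, the member with the highest difference on its brightest probe set, and of Slc7a11, which holds a pair of matches to the ATF4 response element. The Slc38a9 stretch is chr13:112660516-112660765, plus strand, and the Slc7a11 stretch chr3:50443614-50443863, minus strand, both of GRCm38.p6. In Slc38a9 the capitals mark the TCF/LEF letters CTTTGAT, and in Slc7a11 the ATF4 letters TGATGNAA, read on either strand.

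Slc38a9: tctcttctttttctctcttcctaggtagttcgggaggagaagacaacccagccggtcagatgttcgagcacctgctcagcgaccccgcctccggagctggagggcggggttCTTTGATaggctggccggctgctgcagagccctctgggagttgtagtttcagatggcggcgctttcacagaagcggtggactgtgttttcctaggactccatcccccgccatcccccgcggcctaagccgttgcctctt
Slc7a11: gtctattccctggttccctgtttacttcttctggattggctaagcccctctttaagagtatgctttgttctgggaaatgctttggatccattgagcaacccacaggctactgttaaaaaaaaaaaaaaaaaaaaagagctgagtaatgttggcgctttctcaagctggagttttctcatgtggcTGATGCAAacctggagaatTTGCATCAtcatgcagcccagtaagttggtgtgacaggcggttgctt

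Of the 26 measured members 17 had a window in the RefSeq promoter table, which holds 250 bases before and 50 after a start. The 4 motifs below were searched on both strands. A member counts where any of its windows held a match, while the share is over single windows of all genes, measured or not. The member counts and window shares are thus unlike measures, and no excess was tested. The cAMP response element TGACGTCA was in 1 of the 17 members, Slc38a6, and in 1.79% of all 32851 windows. The TCF/LEF letters CTTTGAT, the core read by the factors that pair with β-catenin, were in 3 members (Slc38a9, Slc38a10 and Slc7a1) and in 3.73% of windows. The ATF4 letters TGATGNAA were in Slc1a4 and Slc7a11 and in 3.97% of windows. The E-box CACGTG, read by Myc and other factors, was in 4 members (Slc1a7, Slc36a1, Slc38a7 and Slc43a1) and in 7.15% of windows. A match is a run of letters and was not tested as a binding site, and the matches in the printed stretches do not overlap.

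**Figure D1:**
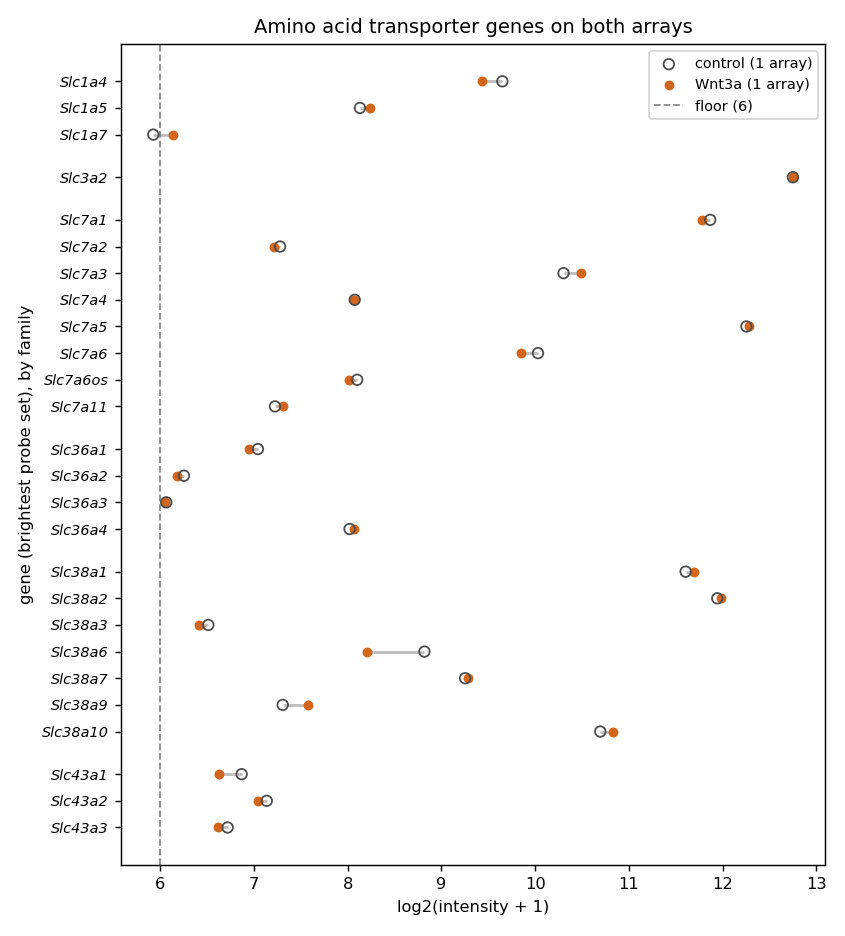
Level of each of the 26 measured members on the control array (open grey circles) and the Wnt3a array (filled orange circles), as log2(intensity + 1), ordered by family, with the floor of 6 as a dashed line. The pairs of circles lie close together except for Slc38a6, at 8.82 in the control and 8.21 with Wnt3a; levels of different genes come from different probes and are not to be ranked.

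The Slc38a family, which includes sodium-coupled carriers of neutral amino acids, gave both the lowest and the highest difference of all measured members. Of 9 members 7 were measured, 5 of them higher and 2 lower, with a median of 0.037. Slc38a6 was at 8.82 in the control and 8.21 with Wnt3a, a difference of -0.61. Its other probe set lay below the floor on both arrays, at 4.82 and 4.64, and gave -0.18. With both probe sets averaged the difference was -0.40, still past 20% lower but short of 1.5-fold. The difference of -0.61 thus rests on 1 probe set, whose place in the transcript is unknown here.

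Slc38a9 encodes a lysosomal protein that carries amino acids and reports arginine to mTORC1. It was at 7.31 in the control and 7.57 with Wnt3a, a difference of 0.27 (1.20-fold). Its 4 other probe sets at the floor gave 0, 0.12, 0.15 and 0.18, and a pair below the floor gave -0.17 and -0.10. None of the 5 probe sets at the floor was lower, and the brightest gave the highest value of the 5. With all 7 probe sets averaged, those below the floor included, the difference was 0.063.

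Slc38a1 and Slc38a2 encode the widely expressed sodium-coupled carriers SNAT1 and SNAT2, the latter known for its rise in cells starved of amino acids. Slc38a1 was at 11.61 and 11.69 (difference 0.085), and its second probe set gave -0.041. Slc38a2 was at 11.94 and 11.98 (difference 0.037), with 0.070 and -0.25 on its dimmer probe sets. For both genes the probe sets took opposite signs, so no direction can be given.

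Slc38a7, a carrier of glutamine out of the lysosome, was at 9.25 and 9.28 on its only probe set (difference 0.031). Slc38a10, a less studied relative, was at 10.69 and 10.83 (difference 0.13), and its 6 other probe sets ran from -0.23 to 0.10. Slc38a3, a glutamine carrier best known from liver and brain, was at 6.51 and 6.41 (difference -0.10), close to the floor. Of these 3, Slc38a10 changed sign, to -0.012, once all its probe sets were averaged, and Slc38a3 did too, to 0.020, once its probe set below the floor was averaged in. Slc38a4 and Slc38a5 were below the floor on both arrays.

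Slc3a2 encodes the heavy chain 4F2hc, also called CD98, which brings its light chains to the cell surface. It was at 12.75 in the control and 12.76 with Wnt3a, on its only probe set (difference 0.0056). Slc3a1, the heavy chain of kidney and gut, was below the floor. Of the 6 light chains that pair with 4F2hc, 3 were measured: Slc7a5, Slc7a6 and Slc7a11. The heavy chain and its best known partner gave almost the same reading on both arrays.

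Slc7a5 encodes LAT1, which takes up leucine and other large neutral amino acids. It was at 12.25 and 12.28 on its only probe set (difference 0.030). Slc7a11 encodes xCT, which imports cystine in exchange for glutamate and thereby feeds glutathione synthesis. It was at 7.22 and 7.31 (difference 0.089), and its second probe set, below the floor, gave 0.10. Slc7a6 encodes y+LAT2, an exchanger of cationic for neutral amino acids. It was at 10.03 and 9.84 (difference -0.19), and its second probe set, at 9.87 and 9.67, gave -0.20. Slc7a6 was thus the one light chain with a second probe set at the floor, and the pair gave shifts of like size, 1.14-fold on the brightest. The light chains Slc7a7, Slc7a8 and Slc7a10 were below the floor.

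The cationic amino acid carriers were all measured, 1 higher and 2 lower. Slc7a1 encodes CAT1, the general carrier of arginine and lysine. It was at 11.87 and 11.78 (difference -0.086), while its second probe set was at 10.96 and 11.11 (difference 0.15), so its probe sets disagreed in sign. Slc7a3, which encodes CAT3, was at 10.30 and 10.49 on its only probe set (difference 0.19, 1.14-fold). Slc7a2, which encodes CAT2, was at 7.28 and 7.22 (difference -0.063), with -0.20 to -0.31 on 3 probe sets below the floor. Slc7a4, a relative whose transport activity is less certain, was at 8.07 on both arrays (difference -0.0083), with -0.096 and -0.097 on dimmer probe sets. None of the 4 was 25% higher or 20% lower.

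Over the whole Slc7a family 8 of 16 genes were measured, 3 higher and 5 lower, with a median of -0.036. This count includes Slc7a6os, at 8.10 and 8.02 (difference -0.083, and -0.24 on its dimmer probe set at the floor), which is no carrier. Slc7a9, Slc7a12, Slc7a13, Slc7a14 and Slc7a15 were below the floor, as were the light chains named above. Without Slc7a6os, and with Slc36a1os left out as well, the median over the measured members of all families was -0.0083.

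Of the Slc1a family, the neutral exchangers were measured and most glutamate carriers were not. Slc1a5 encodes ASCT2, an exchanger that brings in glutamine, and was at 8.13 and 8.23 (difference 0.10), and its second probe set, below the floor, gave 0.073. Slc1a4 encodes ASCT1, an exchanger of alanine, serine and cysteine. It was at 9.65 and 9.43 (difference -0.22) on the brightest of 3 probe sets, and at 0.032 and -0.10 by difference on the others, so that the mean over its probe sets was -0.097. Slc1a7, a glutamate carrier of the retina, was at 5.93 in the control and 6.13 with Wnt3a on its only probe set. Since it passed the floor only with Wnt3a, its difference is given as at least 1.10-fold, counted from the floor. The glutamate carrier genes Slc1a1, Slc1a2, Slc1a3 and Slc1a6 were below the floor on both arrays.

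The 3 members of the Slc43a family, uniporters that include carriers of large neutral amino acids, were all lower relative to the bulk of genes. Slc43a1, which encodes LAT3, was at 6.87 and 6.63 on its only probe set (difference -0.24). Slc43a2, which encodes LAT4, was at 7.14 and 7.04 (difference -0.092), with -0.36 on a probe set that passed the floor only in the control and -0.30 on one below it. Slc43a3, a relative reported to carry purines, was at 6.72 and 6.62 on its only probe set (difference -0.10). The family's median was -0.10, and none of the 3 read above 7.14. Scaling on the spike-in controls would make Slc43a2 and Slc43a3 positive (0.097 and 0.088) and leave Slc43a1 at -0.053.

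The members of the Slc36a family, which includes proton-coupled carriers, lay close together. Their differences were between -0.093 and 0.042, 1 higher and 3 lower among 4 measured. Slc36a1, which encodes the lysosomal carrier PAT1, was at 7.04 and 6.95 (difference -0.093). Slc36a4, a carrier of proline and tryptophan, was at 8.02 and 8.06 (difference 0.042). Slc36a2 and Slc36a3 lay just above the floor, at 6.25 and 6.18 and at 6.07 and 6.05. Each of the 4 had 1 probe set. Slc36a1os was below the floor.

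**Figure D2:**
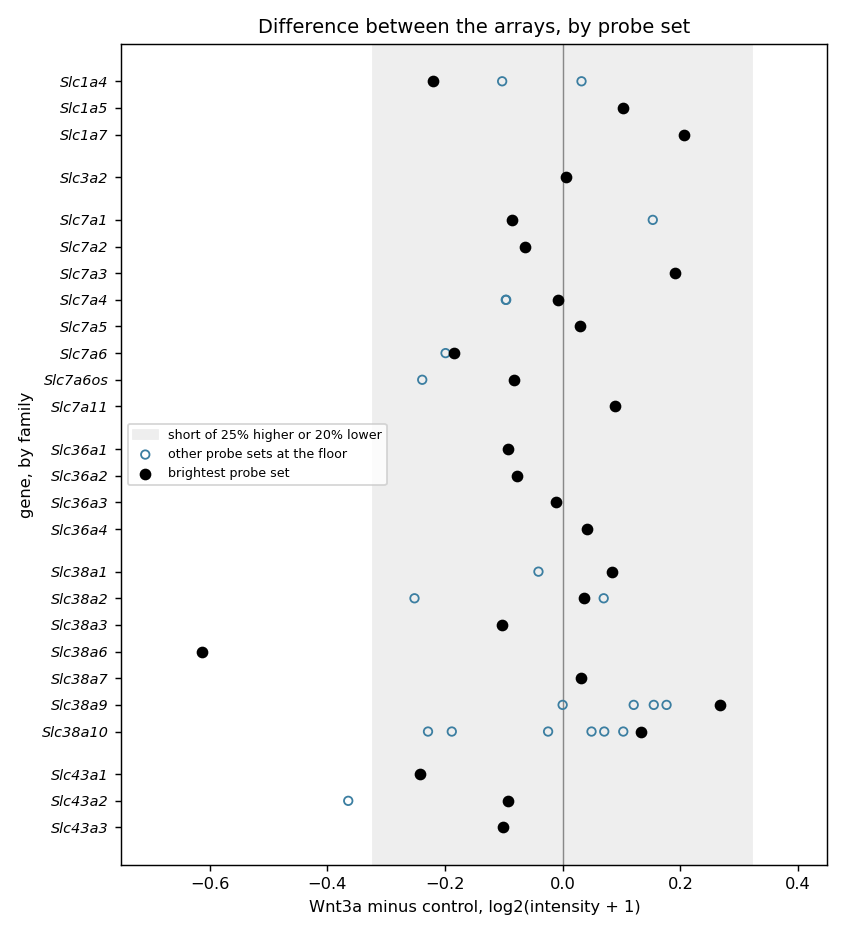
Wnt3a minus control on the log2(intensity + 1) scale for the brightest probe set of each measured member (black) and for its other probe sets at the floor (open blue circles), by family, with differences short of 25% higher or 20% lower shaded. The brightest probe set of Slc38a6, at -0.61, and a dimmer one of Slc43a2, at -0.36, are the points outside the shading.

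How far probe sets of the same gene differ gives the one repeat measurement in these data. It shows the spread between probe sets, whatever its source, and not the spread between cultures. Over the 10 members that had several probe sets at the floor the pooled SD between probe sets was 0.13, beside 0.12 over 5084 genes. In 4 of the 10, Slc43a2, Slc7a4, Slc7a6 and Slc7a6os, the probe sets at the floor shared a sign (40.0%, beside 54.7% of all such genes). The 4 all lay on the lower side, and the brightest probe set of each would be positive under the spike-in scaling. Slc38a9 is not among them because one of its probe sets read exactly alike on both arrays. Most members' differences were smaller than this spread between probe sets. The 16 members below the floor had levels from 3.64 to 5.96, with differences from -0.23 to 0.15, and are described no further.

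Slc38a6 was one of 3 measured genes in a row that were lower with Wnt3a. In the order of measured genes on chromosome 12, Trmt5 stands next to it on one side and Tmem30b, a subunit of lipid flippases, on the other. Trmt5 was at 8.77 in the control and 8.25 with Wnt3a (difference -0.52, 1.43-fold lower), on 1 probe set. Tmem30b was at 6.91 and 6.20 (difference -0.71, 1.64-fold lower), also on 1 probe set. Beyond them on the Trmt5 side lay Mnat1 (0.019), Six4 (-0.24), Ppm1a (0.043) and Dhrs7 (-0.21), and beyond Tmem30b lay Prkch (0.085), Hif1a (0.041), Snapc1 (-0.13) and Rhoj (-0.32). The genes next in line on either side, Mnat1 and Prkch, were slightly higher, so the run of lower measured genes was 3 long. Rhoj, a small GTPase gene, was just over 20% lower, apart from that run. These neighbours were looked at after the value of Slc38a6 was seen. Of all 11397 measured genes 5839 were lower with Wnt3a, and 2.7% were at least 20% lower. How often such runs occur over the array was not counted.

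Head-to-head pairs were then compared over the whole array. Starts on opposite strands, pointing away from each other and within 1000 bases, were annotated for 561 pairs with both genes measured. In 28 of these pairs at least 1 gene was 25% higher or 20% lower. Per gene the share was 5.32% of all measured genes, which is an unlike measure. In 4 pairs both genes were at least 20% lower, in 0 both were at least 25% higher, and in 0 they passed these limits in opposite ways. Slc38a6 with Trmt5, whose starts lie 137 bases apart, was 1 of the 4 and had been seen before the pairs were compared. How many such pairs the share of single genes would give was not worked out. The others were Map2k3 with Map2k3os, Spata5 with Nudt6, and Usp29 with Peg3. Across the 561 pairs the differences had a Pearson correlation of 0.19, a description over genes that all share the same 2 arrays and not over replicates. The other measured members in such pairs were Slc43a1 with D930003E18Rik (-0.24 and -0.14) and Slc7a6os with Prmt7 (-0.083 and -0.13).

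**Figure D3:**
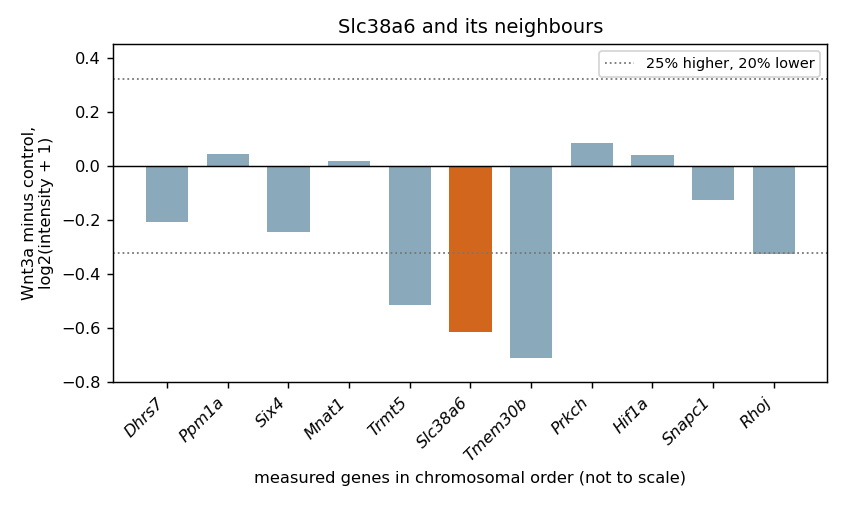
Wnt3a minus control on the log2(intensity + 1) scale for Slc38a6 (orange) and the 5 measured genes on each side of it (blue-grey), in chromosomal order and not to scale, with 25% higher and 20% lower as dotted lines. Trmt5, Slc38a6 and Tmem30b form a run at -0.52, -0.61 and -0.71, and Rhoj, at -0.32, just passes the line.

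Other genes of amino acid use were set beside the carriers by 5 lists. Their counts stand beside 2.61% of all measured genes at least 25% higher and 2.7% at least 20% lower. Among carriers outside the 6 families 29 of 30 listed genes were on the array and 18 were measured. The measured ones had a median of 0.0021, with 1 at least 25% higher and 0 at least 20% lower. Slc16a10, which carries aromatic amino acids, was at 5.86 and 6.28 and thus at least 1.21-fold higher counted from the floor, while the count uses the measured values. Slc25a22, a mitochondrial glutamate carrier, was lower (-0.30), Slc6a9, a glycine carrier, was higher (0.23), and Slc6a6, the taurine carrier, was lower (-0.19).

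The ATF4 list holds ATF4, kinases upstream of it and known targets outside the carrier families. Of 29 listed genes 28 were on the array and all of these were measured, with a median of 0.025, 18 higher and 10 lower. Stc2, a secreted glycoprotein gene, was at 9.02 and 9.43 (difference 0.41) and was the 1 member at least 25% higher, with 0 at least 20% lower. Fgf21, a stress hormone gene, was at 7.52 and 7.84 (0.32), Atf5, a factor related to ATF4, at 11.63 and 11.92 (0.29), and Aldh1l2, a mitochondrial folate enzyme gene, at 10.11 and 10.30 (0.19).

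The list of amino acid sensing for mTORC1 had 36 of 38 genes on the array, all of them measured. Their median was 0.013, with 0 past these limits in either direction. Flcn (0.26) and Fnip1 (0.22), which encode partners that act on the Rag GTPases at the lysosome, and Depdc5 (0.18), part of the inhibitory complex GATOR1, were higher, and Sesn3 (-0.21), a sestrin gene, was lower. Slc38a9, which works with the Rag GTPases at the same membrane, stood at 0.27 beside them on its brightest probe set and at 0.063 as the average of all.

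Of 20 listed tRNA synthetases, which load amino acids for translation, 19 were on the array and all of these were measured. Their median was 0.044, again with 0 past the limits. Kars (0.18), Aars (0.16), Farsa (-0.15) and Vars (0.13) differed most. Of 35 listed enzymes of amino acid metabolism 30 were on the array and 26 were measured. The measured enzymes had a median of -0.022, with 0 at least 25% higher and 1 at least 20% lower. Dbt, a subunit of the branched-chain ketoacid dehydrogenase, was at 6.26 and 5.72 and so, counted from the floor, at least 1.20-fold lower, while it was counted by its measured value below the floor. Bcat2 (0.18) and Bckdhb (-0.17), of the same branched-chain pathway, took opposite signs, and Gclm (0.18), of glutathione synthesis, was higher. All medians of the 5 lists lay within the central 50% of all measured genes.

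**Figure D4:**
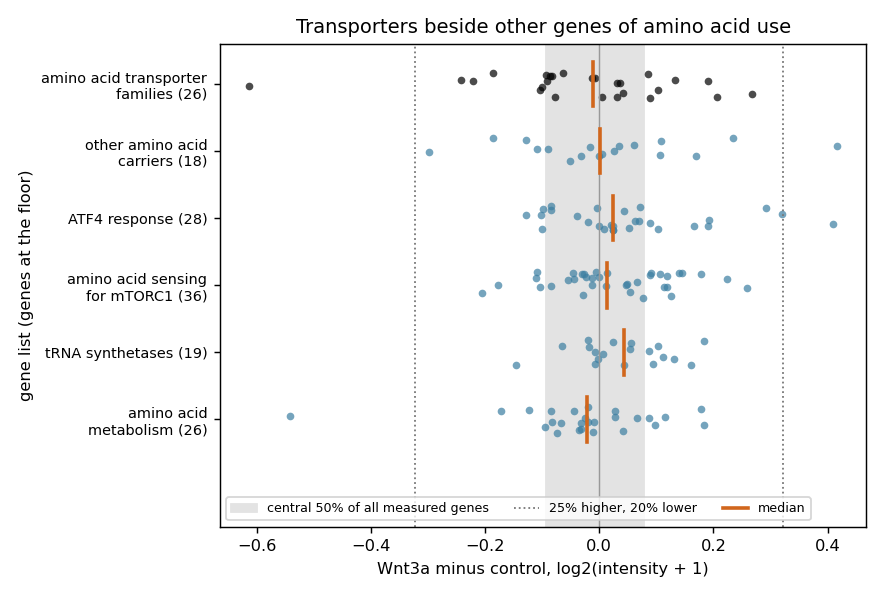
Wnt3a minus control on the log2(intensity + 1) scale for the 26 measured members (black) and for the measured genes of 5 other lists of amino acid use (blue), 1 point per gene and spread vertically for legibility, with list medians as orange bars, the central 50% of all 11397 measured genes shaded and 25% higher and 20% lower as dotted lines. The medians run from -0.022 to 0.044, all inside the shading, and Slc38a6 and Dbt are the points farthest to the left.

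Axin2 carried a mark of the treatment, and myoblast markers that of the cell type. Axin2, a feedback target of β-catenin, was 12.2-fold higher with Wnt3a. Lef1 and Myc were not higher. Lef1 differed by -0.13, and Myc, whose product is known to bind carrier genes such as Slc7a5 and Slc1a5, was 2.19-fold lower. All 8 myoblast markers were measured, with Myod1 at 13.41 and 13.28. Of these, Myf5 (11.96 and 12.45) was at least 25% higher and Myog (10.11 and 9.61), which marks the onset of differentiation, at least 20% lower, while Des differed by 0.32 and Itga7 by -0.26. Of 8 fibroblast markers 0, of 8 leukocyte markers 4, of 6 endothelial markers 1, of 4 Schwann cell markers on the array 3, of 6 smooth muscle markers 3 and of 6 lung epithelium markers 4 were measured. The summed intensity of the lung list was 766 in the control and 477 with Wnt3a, led by Scgb1a1 (8.39 and 5.96). Its measured markers split, 2 higher and 2 lower. Sftpc (6.31 and 5.24) was lower too, while Sftpb (7.05 and 7.14) and Epcam (7.47 and 7.61) were higher. The summed intensity of the smooth muscle list was 8819 and 10686, led by Acta2 (12.75 and 13.07) and Tagln (10.81 and 10.87). The smooth muscle markers Myh11 (4.88 and 4.94), Cnn1 and Rgs5 were below the floor. The leukocyte list summed to 491 and 470, with its defining marker Ptprc at 3.83 and 4.11. The Schwann cell list summed to 688 and 726, the endothelial list to 191 and 185, and the fibroblast list to 247 and 248. The part of such cells, or of the myoblasts' state, in the difference of Slc38a6 was not tested, and fewer cells of a type and less RNA per cell cannot be told apart in bulk RNA.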

How the data were processed

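RNA from 1 control and 1 Wnt3a-treated culture was labelled with biotin for Affymetrix 3′ arrays, per the labels' protocols. The deposited table gives 1 intensity for each of 45101 probe sets and array, on a linear scale from 7.09 to 37075 in the control and from 7.07 to 36604 with Wnt3a. Per the submitters' processing notes, RMA, affy and limma were used, with no version, order or setting. The build and any step to a linear scale were not given in the sources used here. Of these probe sets 64 were controls and 34945 were tied to a single gene in the platform's annotation, which named all members and list genes. All 42 members were found by symbol in RefSeq's gene table (GRCm38.p6), and 31 in its promoter table.

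Values were taken as log2(intensity + 1). A gene was its probe set with the highest mean log2 value of both arrays. Taking the mean of intensities instead changed the probe set of 0 of 42 members. Folds are given as "at least", from the floor of 6, where 1 array lay below it. Counts took genes at least 25% higher or 20% lower. Every measured member is named, and of each of the 5 other lists of amino acid use up to 4 measured genes with the largest differences, with Axin2, Lef1 and Myc always given. Markers of cell types were named after their values were seen. The members and lists were chosen with earlier results of these data known. The neighbours of Slc38a6, the promoter motifs and the printed sequences were chosen after its values were seen. There was no test, since each group had 1 array. The procedure was tested on simulated data with less noise than the spread between probe sets seen here. The simulated differences were larger than the 25% limit and lay in genes well above the floor. That test therefore does not measure how reliable the differences given here are. Python 3.11.15, numpy 2.4.6, pandas 2.3.3, statsmodels 0.14.6 and matplotlib 3.10.9 were used.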

Additional observations from a re-analysis of the deposited data

How the results depend on the processing

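The counts of measured members (0 at least 25% higher, 1 at least 20% lower) were recomputed under 12 alternatives, and the median and single differences under 10 of these: no floor, a floor of 8, the floor on both arrays, the mean of all probe sets, probe sets that can match several transcripts left out, no pseudocount, a pseudocount of 16, quantile normalization, removal of a loess trend (span 0.3) and scaling on spike-in controls. With that scaling 4 members were at least 25% higher (Slc1a7, Slc38a9, Slc38a10 and Slc7a3), beside 14.8% of all measured genes, and the median became 0.18. At a threshold of 2-fold 0 members were lower, and at 1.5-fold 1 was. The other counts and medians kept within the limits used here. Slc38a6 ran from -0.61 to -0.40 over 10 alternatives, nearest 0 with the mean of all probe sets, and Trmt5 from -0.52 to -0.33. Tmem30b ran from -0.73 to -0.52 over 9 and dropped out at the floor of 8, so the run of 3 neighbours was not seen there. With the mean of all probe sets 6 of 24 members moved by more than 0.12 and 4 changed sign. No paired analysis was possible because each group had 1 array.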
